A study of Homo sapiens with 16 samples.

Results

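TAL1, the regulators that work with it in T cell leukaemia and the ID proteins that oppose its partners were followed through hydrogen peroxide treatment of the established human T-ALL line Jurkat E6-1, in which TAL1 is active. T-ALL is T cell acute lymphoblastic leukaemia. The 10 genes were taken by symbol: TAL1, GATA3, RUNX1, MYB, TCF3, TCF12, LMO1, ID1, ID2 and ID3. All 10 were found among the 60662 genes of the deposited count tables, and all 10 passed the filter on low counts that left 14092 genes for testing. RNA-seq libraries of 2 groups were compared. The peroxide group was 8 libraries of wild-type cells that had spent 4 h in phosphate-buffered saline (PBS) with 10 µM hydrogen peroxide. The labels state this dose per set number of cells and not as a concentration alone. The control group was 8 libraries of wild-type cells at 0 h with no treatment. Since the groups differ in medium and time as well as peroxide, the effects of these cannot be told apart. File names give 2 batches, each with 4 peroxide and 4 control libraries, and what a batch stands for is not stated. All cells came from 1 line that the labels describe as lymphoma, and the labels call the libraries biological replicates without saying which cultures they came from, so p-values measure the spread between these libraries.

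TAL1 is a basic helix-loop-helix (bHLH) transcription factor of blood stem cells and the erythroid lineage that is normally off in maturing T cells. It binds DNA as a dimer with an E protein, such as the products of TCF3 (E2A) or TCF12 (HEB), and the dimer joins a complex with LMO and LDB1 adaptors and GATA and RUNX factors. In T-ALL, TAL1, GATA3, RUNX1 and MYB are described as a circuit in which each binds regulatory DNA of the others. ID proteins have the helix-loop-helix but no basic region, so they pair with E proteins and keep them from DNA.

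A promoter of TAL1 is shown because GATA factors are part of the circuit and both TAL1 and GATA3 fell. The stretches beside ID1 and ID2 are shown because, of these related genes, ID2 rose and ID1 did not pass. Sequences are from RefSeq on GRCh38.p14, 5′ to 3′ on the strand of the gene, upstream of the annotated start. Capitals mark exact matches, on either strand, to GATAA (the GATA motif), CANNTG (the E-box), TGTGGT (the RUNX motif), GGGCGG (the GC box), CCAAT (the CCAAT box), TATAAA (the TATA box) or TGACGTCA (the cAMP response element). TAL1 is shown over chr1:47232336-47232585 (minus strand), ID1 over chr20:31605039-31605282 (plus strand) and ID2 over chr2:8681844-8681873 (plus strand).
TAL1: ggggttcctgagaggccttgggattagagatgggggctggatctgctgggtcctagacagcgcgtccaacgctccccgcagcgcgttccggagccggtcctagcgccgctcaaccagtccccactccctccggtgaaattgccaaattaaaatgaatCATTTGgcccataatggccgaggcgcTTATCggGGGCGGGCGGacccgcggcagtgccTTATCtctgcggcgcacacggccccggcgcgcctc
ID1: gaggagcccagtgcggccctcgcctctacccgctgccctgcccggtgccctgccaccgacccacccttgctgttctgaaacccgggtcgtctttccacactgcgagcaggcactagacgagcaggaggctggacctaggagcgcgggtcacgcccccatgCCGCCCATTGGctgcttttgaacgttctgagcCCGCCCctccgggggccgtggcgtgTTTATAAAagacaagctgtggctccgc
ID2: accacccCAGCTGggctcgcgccCCGCCCa
The TAL1 window held 2 matches to GATAA in reverse, which began 67 and 35 bases before the start, an E-box at 93 bases and 2 overlapping GC boxes. A second annotated TAL1 start has another window, not printed, with 0 matches to GATAA or the E-box, 3 to the RUNX motif and 1 GC box. Of 35116 promoter windows of 250 bases, 20.4% held GATAA, 61.8% an E-box, 11.0% the RUNX motif and 42.6% a GC box. Of the 20 windows of the 10 genes, 3 held GATAA, 6 an E-box, 2 the RUNX motif and 14 a GC box. ID1 held 2 GC boxes, a CCAAT box in reverse and a TATAAA whose matches on the 2 strands overlap. The ID2 stretch held an E-box 205 bases before the start and a GC box. It was picked as 30 bases around that E-box, since the rest of its window is annotated as exon of ID2. The matches in the 244 bases of ID1 and the 30 bases of ID2 are thus not comparable. The full 250-base ID2 window, of which only that stretch is printed, also held GATAA 31 bases before the start, another GC box and 3 CCAAT boxes. CCAAT was in 32.0% of all windows and in 6 of the 20 windows of the 10 genes. TATAAA was in 10.7% of all windows and in 2 of those 20. TGACGTCA was in 0 of the 20 windows of the 10 genes and in 1.65% of all windows. These matches describe the letters and no binding was measured.

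Libraries held 5556553 to 15720881 reads in genes. Peroxide library 8 stood above the other peroxide libraries in GATA3 and ID2, and values without it are given with those genes. Controls 6 and 7 had the highest ID2 levels of the controls, and also the highest ID1, so the ID genes are given with and without them. Levels are given as CPM, counts scaled to library size with TMM factors. All 11 T cell markers examined passed the filter, with a summed level of 3027 to 3845 CPM in peroxide libraries and 2912 to 3861 CPM in controls. Erythroid markers were examined because TAL1 is a regulator of that lineage, and the globin genes HBG1, HBG2 and HBB had 0 reads in all 16 libraries. The only erythroid marker of 10 to pass the filter, the erythropoietin receptor gene EPOR, stood at 13.9 ± 3.61 CPM after peroxide and 12.5 ± 2.72 CPM in controls (SD, n = 8 each) and was not called. Below the filter, KLF1 had 62 reads after peroxide and 69 in controls, HBA1 23 and 3 in the same order, SLC4A1 21 and 3, ALAS2 11 and 0, and GATA1 5 and 14.

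Of the 10 genes, 1 rose (ID2) and 5 fell (TAL1, ID3, GATA3, TCF12 and MYB) after peroxide by edgeR's quasi-likelihood test at a Benjamini-Hochberg adjusted p under 0.05 over all genes. RUNX1, TCF3, LMO1 and ID1 did not pass. Over all genes tested 24.1% rose and 24.3% fell, 48.3% together, so being called was common in this comparison. In numbers, 3391 genes rose and 3419 fell, and 2822 rose and 4375 fell when library sizes were left unscaled by TMM. That choice moved the median of all genes to -0.08 on the log2 scale, and ID2 still rose and the 5 falls were still called with it. The median log2 fold change was -0.16 over the 10 genes and -0.01 over all genes tested. The groups did not overlap in 2 of the 10 genes, against 11.3% of all genes tested. All peroxide libraries lay above all controls in 1 gene, ID2, as in 6.76% of all genes, and below them in 1 gene, TAL1, as in 4.49%. The fold changes of the 2 batches differed in 0 of the 10 genes by the interaction of batch and treatment in edgeR and in 0 by DESeq2, with 1 (ID2) at an unadjusted p under 0.05, and in 4.88% of all genes. In bulk RNA, fewer cells that express a gene and less RNA of it per cell cannot be told apart.

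**Figure D1:**
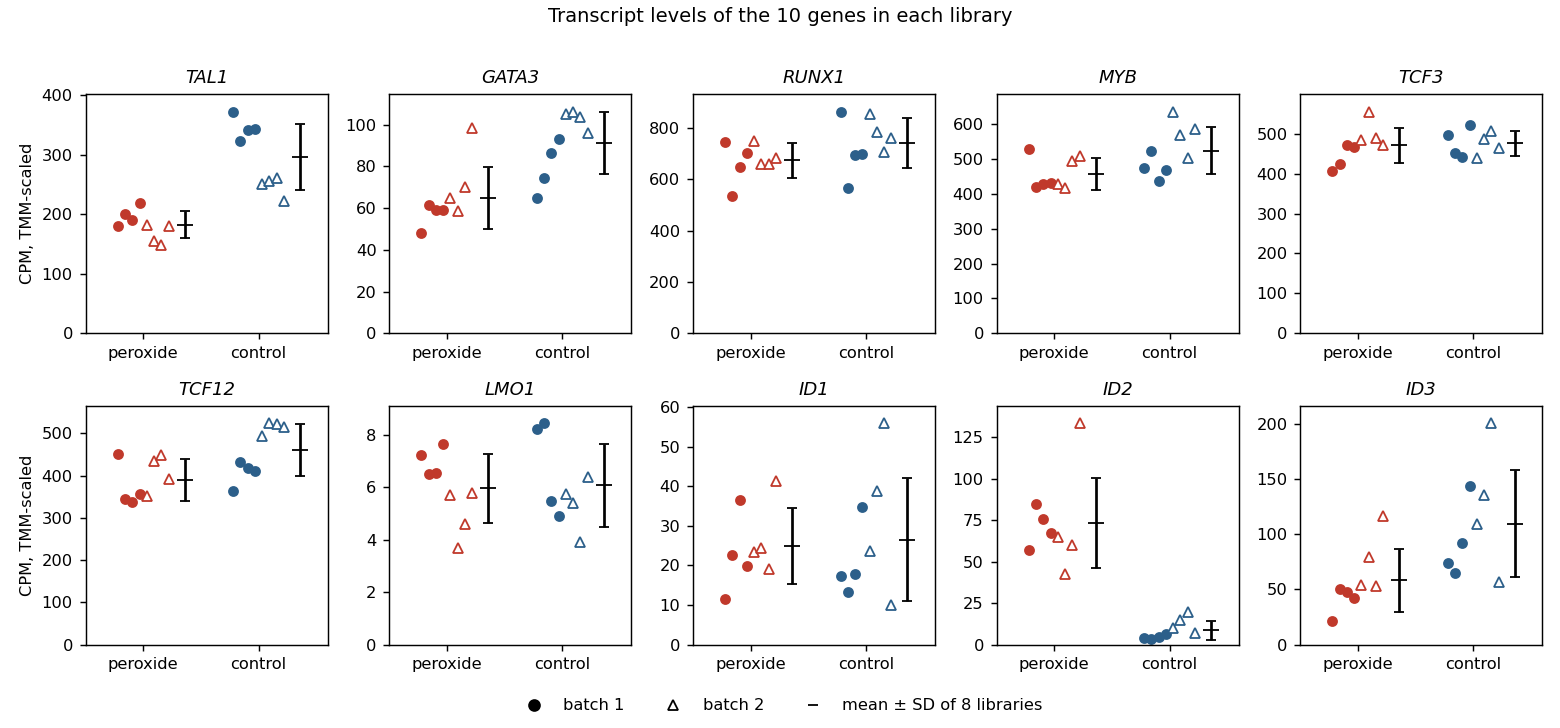
Level of each gene in CPM (vertical axis, from 0) in the 8 peroxide libraries (red) and the 8 control libraries (blue). Filled circles are batch 1, open triangles batch 2 and bars the mean ± SD. TAL1 in every peroxide library lay below every control and ID2 above every control, while the groups overlapped in the other genes.

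TAL1 (ENSG00000162367.11), the leukaemia factor itself, was at 149.1 to 218.6 CPM with a median of 181.8 CPM in peroxide libraries, against 222.5 to 371.9 CPM with a median of 292.4 CPM in controls. The lowest control thus lay just above the highest peroxide library. The log2 fold change was -0.69 ± 0.06 (SE), with adjusted p = 1.96e-08 by edgeR's quasi-likelihood test, and TAL1 ranked 423 from the lowest of 14092 genes by fold change.
The controls of the 2 batches differed in TAL1. Batch 1 had 180.9 to 218.6 CPM after peroxide and 323.5 to 371.9 CPM in controls. Batch 2 had 149.1 to 182.7 CPM after peroxide and 222.5 to 261.3 CPM in controls. Within each batch the groups stood well apart, with log2 fold changes of -0.80 ± 0.08 in batch 1 and -0.57 ± 0.08 in batch 2. The difference between the batches' effects did not pass (interaction of batch and treatment, edgeR adjusted p = 0.255).
An annotated antisense gene that overlaps TAL1 (ENSG00000226252.1) was at 9.39 ± 1.82 CPM after peroxide and 15.0 ± 1.55 CPM in controls (SD, n = 8 each). Its log2 fold change of -0.69 ± 0.10 was close to that of TAL1 (edgeR adjusted p = 4.34e-06). The sources used here do not give the strand setting of the counting, so reads of the 2 genes cannot be told apart where they overlap.

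GATA3 (ENSG00000107485.18), a zinc finger factor of the T cell lineage, was at 48.1 to 98.2 CPM with a median of 60.3 CPM after peroxide, against 64.9 to 106.0 CPM with a median of 94.5 CPM in controls. In 7 of 8 peroxide libraries it was at 70.2 CPM or less, and the highest value, 98.2 CPM in library 8, lay within the control range. The log2 fold change was -0.49 ± 0.09 with edgeR adjusted p = 0.000155, and -0.57 without peroxide library 8. It was nearly the same in both batches, -0.49 ± 0.13 in each.

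MYB (ENSG00000118513.19), a factor of blood progenitors that T-ALL cells also express, was at 418.2 to 529.8 CPM with a median of 429.3 CPM after peroxide and 437.3 to 634.9 CPM with a median of 512.4 CPM in controls. Most peroxide libraries lay below all controls, but the ranges overlapped. Its log2 fold change was -0.19 ± 0.07 (edgeR adjusted p = 0.0319). That call was lost without peroxide library 5 or 6 or control 5 or 8 (edgeR adjusted p 0.0527 to 0.0713), without peroxide 5 and control 1 together (edgeR adjusted p = 0.0716), without a batch term (edgeR adjusted p = 0.0877) and in batch 1 alone (edgeR adjusted p = 0.567).
By batch, MYB stood at 451.7 ± 52.3 CPM after peroxide and 475.4 ± 35.1 CPM in controls of batch 1, and at 462.5 ± 45.9 CPM after peroxide and 572.9 ± 54.5 CPM in controls of batch 2 (SD, n = 4 each).
RUNX1 (ENSG00000159216.18), the core-binding factor subunit that contacts DNA, was at 534.6 to 749.2 CPM with a median of 671.3 CPM after peroxide and 564.2 to 861.4 CPM with a median of 733.7 CPM in controls. The ranges largely coincided. Its log2 fold change of -0.14 ± 0.08 did not pass (edgeR adjusted p = 0.160), with a 95% interval of -0.30 to 0.03. It passed as lower without control 2 (edgeR adjusted p = 0.0379), with library sizes left unscaled by TMM (edgeR adjusted p = 0.0392), with no filter (edgeR adjusted p = 0.0194) and with a replicate block (edgeR adjusted p = 0.0482). The fit with no filter gave smaller p-values than the main fit for the genes followed here.

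The 2 E proteins differed in whether they passed. TCF12 (ENSG00000140262.17) was at 337.4 to 451.2 CPM with a median of 373.5 CPM after peroxide and 363.6 to 523.8 CPM with a median of 462.9 CPM in controls. In batch 2 every peroxide library was below every control, at 406.6 ± 43.4 CPM after peroxide and 513.8 ± 13.4 CPM in controls (SD, n = 4 each). The log2 fold change over both batches was -0.23 ± 0.07 (edgeR adjusted p = 0.00959).
In batch 1 TCF12 was at 371.9 ± 53.3 CPM after peroxide and 405.8 ± 29.4 CPM in controls (SD, n = 4 each). The call was lost in batch 1 alone (edgeR adjusted p = 0.352) and without a batch term (edgeR adjusted p = 0.0575).
TCF3 (ENSG00000071564.16) was at 407.0 to 554.4 CPM with a median of 471.0 CPM after peroxide and 438.7 to 522.3 CPM with a median of 475.6 CPM in controls. These groups coincided, with a log2 difference of -0.02 ± 0.06 and a 95% interval of -0.14 to 0.11 (edgeR adjusted p = 0.823). The difference between the fold changes of the 2 genes was not tested.

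LMO1 (ENSG00000166407.14), a LIM-only adaptor that joins the TAL1 complex, was scarce, with 3.70 to 7.64 CPM after peroxide and 3.93 to 8.44 CPM in controls. It had 401 reads in all peroxide libraries and 487 in all controls. The log2 difference of -0.02 ± 0.14 did not pass (edgeR adjusted p = 0.914), and its 95% interval of -0.32 to 0.27 leaves room for modest changes either way.

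**Figure D2:**
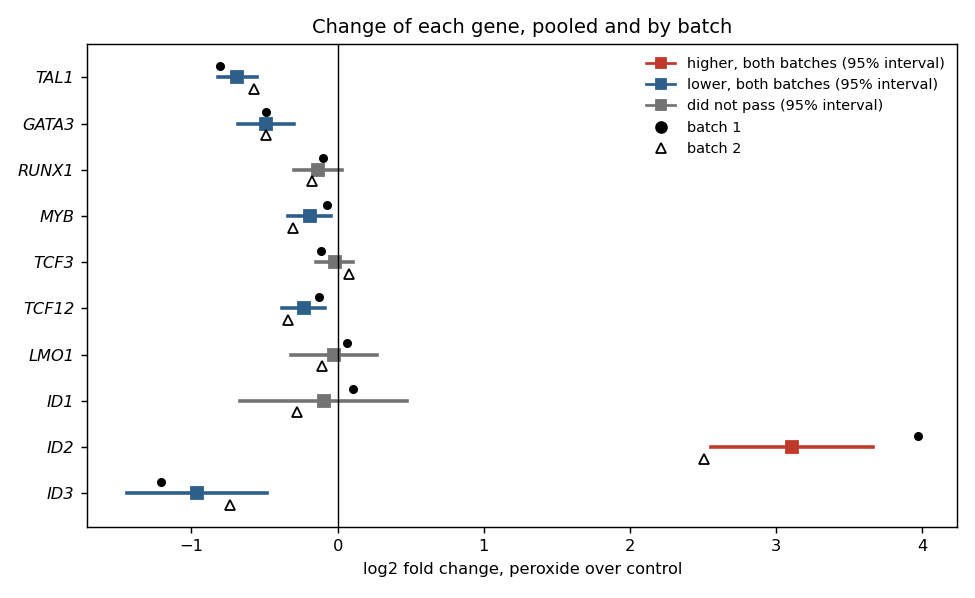
Log2 fold change of peroxide over control for each gene (squares) with its 95% interval, and the estimate in batch 1 (circles) and batch 2 (triangles). ID2 stands alone to the right at 3.11, with 3.97 in batch 1 and 2.51 in batch 2, and the other called genes lie to the left of 0.

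Of the 3 ID genes, ID2 rose, ID3 fell and ID1 did not pass, and differences between their fold changes were not tested. ID2 (ENSG00000115738.10), the ID gene best known from innate lymphocytes and effector T cells, was at 42.8 to 133.6 CPM with a median of 65.9 CPM after peroxide, against 3.19 to 19.6 CPM with a median of 6.85 CPM in controls. Even the lowest peroxide library was above the highest control. The log2 fold change was 3.11 ± 0.27, an 8.61-fold rise (edgeR adjusted p = 4.51e-09), and ID2 ranked 117 from the highest of 14092 genes. Of all genes tested, 5.93% rose by 2-fold or more.
The controls of batch 2 held more ID2 than those of batch 1. In batch 1 ID2 was at 57.0 to 85.0 CPM after peroxide and 3.19 to 6.48 CPM in controls, a log2 fold change of 3.97 ± 0.35. In batch 2 it was at 42.8 to 133.6 CPM after peroxide and 7.21 to 19.6 CPM in controls, a log2 fold change of 2.51 ± 0.29. The peroxide ranges of the 2 batches overlapped and their control ranges did not. The interaction of batch and treatment did not pass (edgeR adjusted p = 0.0681). It passed without peroxide library 8 (edgeR adjusted p = 0.00520) or without control 8 (edgeR adjusted p = 0.0481). The ID2 rise was 2.94 on the log2 scale without peroxide library 8 and 3.61 without controls 6 and 7.
ID2-AS1, an antisense gene that overlaps ID2, was at 3.94 ± 2.91 CPM after peroxide and 2.17 ± 1.37 CPM in controls (SD, n = 8 each). The groups overlapped, with a log2 fold change of 0.83 ± 0.28 (edgeR adjusted p = 0.0174). As for TAL1, the strand setting is not given, so reads of ID2 and ID2-AS1 cannot be told apart where they overlap. ID2B, a pseudogene copy of ID2, had 0 reads in all 16 libraries.

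ID3 (ENSG00000117318.9), an immediate target of T cell receptor signalling in thymocytes, was at 21.7 to 116.6 CPM with a median of 52.1 CPM after peroxide and 56.6 to 201.1 CPM with a median of 100.8 CPM in controls. Most peroxide libraries were below the lowest control, but libraries 6 and 8 were not. The log2 fold change was -0.96 ± 0.23 (edgeR adjusted p = 0.00167), the rank being 152 from the lowest of 14092 genes. Without controls 6 and 7 the fold change was -0.79 (edgeR adjusted p = 0.0160), and in batch 2 alone the call was lost (-0.74, edgeR adjusted p = 0.0703).
By batch, ID3 was at 40.8 ± 13.2 CPM after peroxide and 93.8 ± 35.1 CPM in controls of batch 1, and at 76.0 ± 29.6 CPM after peroxide and 125.8 ± 60.0 CPM in controls of batch 2 (SD, n = 4 each).
ID1 (ENSG00000125968.9), a target of bone morphogenetic protein (BMP) signalling, was at 11.5 to 41.2 CPM with a median of 22.9 CPM after peroxide and 10.1 to 55.9 CPM with a median of 20.8 CPM in controls. The peroxide range lay within the control range. Its log2 difference of -0.10 ± 0.27 did not pass (edgeR adjusted p = 0.800), with a wide 95% interval of -0.67 to 0.47. The sign of the estimate depended on the controls taken, and it was 0.33 without controls 6 and 7 (edgeR adjusted p = 0.331) and 0.11 without control 7 alone (edgeR adjusted p = 0.755).

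Within a group the ID genes varied together. After each mean of group and batch was subtracted from log2 CPM, the 16 libraries gave a Pearson r of 0.94 between ID1 and ID3, 0.83 between ID1 and ID2 and 0.81 between ID2 and ID3. GATA3 and ID2 gave 0.77 in the same measure and TAL1 and TCF12 -0.69. These values describe 16 libraries, and in each library the genes share its depth and scaling.
By the same measure over 9696 genes at 10 CPM or more, the genes most like ID3 were STK10 (r = 0.93, Spearman rho = 0.94), PTPN6 (r = 0.91, rho = 0.94) and ELF4 (r = 0.89, rho = 0.86). For TAL1 they were RASSF5 (r = 0.89, rho = 0.94), OGFOD3 (r = 0.86, rho = 0.86) and CHST14 (r = 0.85, rho = 0.82). These were picked as the highest of 9696 values over 16 libraries, where some high values arise by chance, and none was tested.

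Divided by exon length, levels can be compared roughly between genes. Lengths are the union of exons in GENCODE release 29 and values are CPM per kb. The union was 1233 bases in ID1 and 15574 bases in RUNX1. It can exceed the length of the transcripts present, which was not measured, so orders, ratios and sums over genes are approximate. In peroxide libraries the order from high to low was MYB (83.2 ± 8.36), TCF3 (77.4 ± 7.32), RUNX1 (43.2 ± 4.36), TCF12 (41.2 ± 5.15), ID2 (33.3 ± 12.4), ID3 (32.5 ± 15.8), TAL1 (32.0 ± 3.95), ID1 (20.1 ± 7.79), GATA3 (18.9 ± 4.31) and LMO1 (3.53 ± 0.779). In controls it was MYB (95.4 ± 12.2), TCF3 (78.3 ± 5.19), ID3 (61.1 ± 27.1), TAL1 (52.0 ± 9.64), TCF12 (48.7 ± 6.51), RUNX1 (47.5 ± 6.25), GATA3 (26.5 ± 4.37), ID1 (21.4 ± 12.6), ID2 (3.93 ± 2.63) and LMO1 (3.59 ± 0.928) (SD, n = 8 each). Neighbours in these orders overlapped in range over libraries, except TCF3 and RUNX1 and also GATA3 and LMO1 after peroxide, and RUNX1 and GATA3 in controls. The place of ID2 moved most, the fifth in peroxide libraries and the ninth in controls.
The ratio of ID2 to ID3 in CPM per kb was 0.439 to 2.15 (median 1.13) in peroxide libraries and 0.0368 to 0.104 (median 0.0586) in controls. ID2 exceeded ID3 in the 4 peroxide libraries of batch 1, in 0 of the 4 of batch 2 and in 0 of 8 controls. The summed level of ID1, ID2 and ID3 was 47.3 to 159 CPM per kb (median 81.0) after peroxide and 42.9 to 166 (median 76.2) in controls. These ranges nearly coincided. Divided by the summed level of TCF3 and TCF12, the ID sum was 0.412 to 1.34 (median 0.642) in peroxide libraries and 0.328 to 1.20 (median 0.630) in controls.

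**Figure D3:**
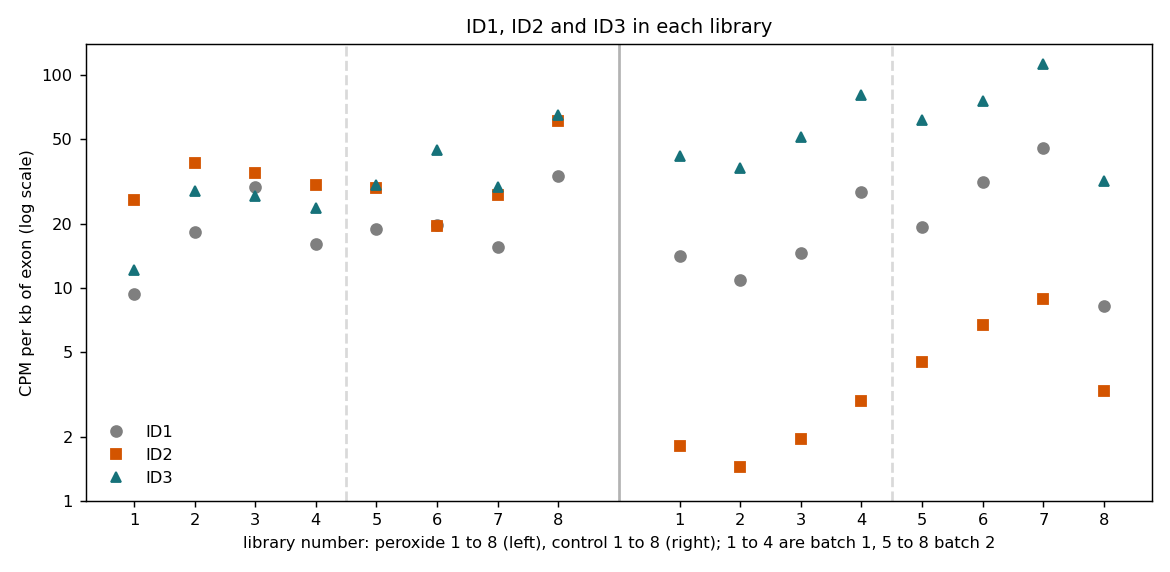
ID1, ID2 and ID3 in CPM per kb of exon (log axis) in peroxide libraries 1 to 8 (left) and control libraries 1 to 8 (right), with batches divided by dashed lines. ID2 lies far below ID3 in every control and above ID3 in the peroxide libraries of batch 1, and controls 6 and 7 have the highest ID1 and ID2 of the controls.

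Genes linked to the circuit were read from the same test, from lists chosen with earlier results of these data known, and 24.1% of all genes rose and 24.3% fell as above. Of 19 other complex partners and relatives, 12 passed the filter, 2 rose and 1 fell (median log2 fold change -0.04). The adjusted p-values of genes named in this account are below 0.05 by edgeR where a rise or fall is stated. MYBL1, a relative of MYB, was at 40.8 ± 7.10 CPM after peroxide and 21.8 ± 2.91 CPM in controls (SD, n = 8 each), a log2 fold change of 0.91 ± 0.11. LMO4, another LIM-only adaptor, rose by 0.60 ± 0.08, and SSBP2, which stabilises LDB1, fell by 0.20. SSBP2 lost its call without a batch term (edgeR adjusted p = 0.0729) and in batch 1 alone (edgeR adjusted p = 0.236). LDB1, the bridge of the complex, was at 156.3 CPM after peroxide and 161.7 CPM in controls and did not pass. The relatives LYL1 and TAL2 did not reach the filter. LYL1 had 56 reads over the peroxide libraries and 54 over the controls, and TAL2 had 47 and 30 in the same order. LMO2 had 12 reads after peroxide and 17 in controls.

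Cofactors of the complex went both ways. Of 13, 12 were tested, 2 rose and 3 fell (median log2 fold change 0.05). CBFA2T3 (ETO2), a corepressor bound by TAL1 complexes, was at 77.8 ± 6.52 CPM after peroxide and 104.1 ± 16.8 CPM in controls, with no overlap and a log2 fold change of -0.41 ± 0.07. The acetyltransferase KAT2B fell by 0.43 on the log2 scale and the corepressor RCOR1 rose by 0.36 ± 0.08. SIN3A, the other fall, was named to complete the count. RCOR1 lost its call in batch 2 alone (edgeR adjusted p = 0.0760).
The acetyltransferase CREBBP was called higher over both batches (0.34 ± 0.11, edgeR adjusted p = 0.0148), but its log2 fold change was 0.73 ± 0.10 in batch 1 and -0.04 ± 0.10 in batch 2. The call was lost without a batch term (edgeR adjusted p = 0.213).

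Of the genes described as activated by TAL1 in T-ALL, more fell than rose. All 9 passed the filter, 6 fell and 2 rose, with a median log2 fold change of -0.41. MIR223HG, the host transcript of miR-223, was at 4.45 ± 1.03 CPM after peroxide and 17.9 ± 8.14 CPM in controls, a log2 fold change of -1.96 ± 0.16. UBASH3B, a phosphatase of lymphocyte signalling, was at 54.8 ± 5.95 CPM after peroxide and 80.3 ± 4.73 CPM in controls (SD, n = 8 each). Its groups did not overlap and its log2 fold change was -0.55 ± 0.06. ETS1, a lymphoid transcription factor, fell by 0.39, and TRIB2, ARID5B and CDK6 were the other falls. ERG rose, and ALDH1A2 was at 395.2 ± 117.9 CPM after peroxide and 378.3 ± 125.8 CPM in controls and did not pass. TRIB2, ARID5B, CDK6, ERG and ALDH1A2 were named after their values were seen.

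Of 13 genes described as E protein targets in T cell precursors, 3 rose and 6 fell (median log2 fold change -0.08). The cell cycle inhibitor CDKN1A was at 15.0 ± 4.99 CPM after peroxide and 1.07 ± 0.272 CPM in controls, a log2 fold change of 3.73 ± 0.21. HES1, a target of Notch, rose by 1.78 ± 0.16 and SOCS3, a cytokine signalling inhibitor, by 1.16 ± 0.17. RAG1, RAG2, CD3G, GFI1, IL7R and NOTCH1 were the 6 falls, named to complete the count.

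Of 15 receptors, SMADs and inhibitors listed for the BMP pathway, which drives ID gene transcription, 6 rose and 2 fell (median log2 fold change 0.03). ACVR1B, an activin receptor in that list, was at 22.1 ± 1.89 CPM after peroxide and 43.1 ± 4.81 CPM in controls, a log2 fold change of -0.96 ± 0.06. The other fall was the BMP receptor gene BMPR2 (-0.29 ± 0.09, edgeR adjusted p = 0.0122), named to complete the count. BAMBI, a pseudoreceptor that dampens BMP and TGF-beta signalling, was at 6.58 ± 2.65 CPM after peroxide and 0.806 ± 0.192 CPM in controls (SD, n = 8 each). Its groups did not overlap and its log2 fold change was 2.97 ± 0.23. The ubiquitin ligase SMURF2 rose by 0.30 ± 0.08 but lost its call in batch 2 alone (edgeR adjusted p = 0.142) and without a batch term (edgeR adjusted p = 0.0886). Of the 3 SMADs that carry BMP signals, SMAD9 rose by 0.56 ± 0.21 on the log2 scale (edgeR adjusted p = 0.0302), and SMAD1 and SMAD5 did not pass. SMAD4, their shared partner, rose by 0.25 ± 0.09 (edgeR adjusted p = 0.0276). These SMADs were named after their values were seen. SMAD1 was at 10.9 ± 3.06 CPM after peroxide and 13.0 ± 2.88 CPM in controls (SD, n = 8 each), and SMAD5 averaged 81.2 CPM after peroxide and 94.6 CPM in controls.

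**Figure D4:**
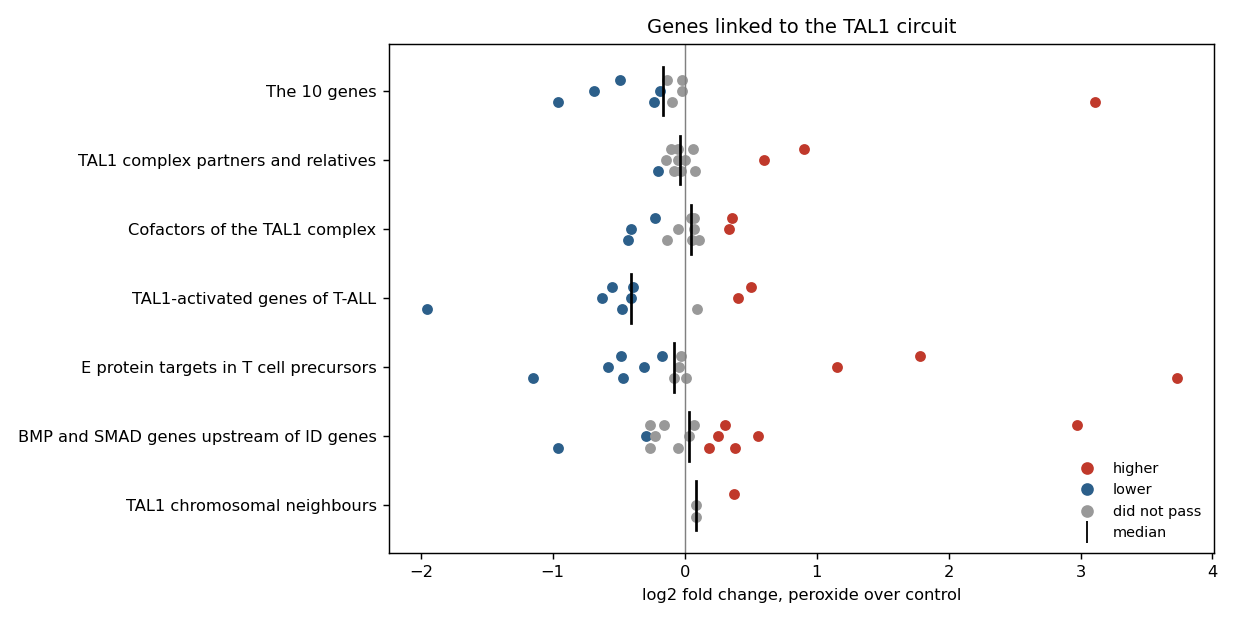
Log2 fold change of peroxide over control for the 10 genes and for the tested genes of each linked list, with each gene a point coloured by its call and the median of each row as a bar. The row of TAL1-activated genes has its median at -0.41 and the other linked rows have theirs between -0.08 and 0.09.

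Among genes beside TAL1 on its chromosome, 3 of 8 passed the filter, and 1, the forkhead gene FOXD2, rose, by 0.37 ± 0.10, a call lost in batch 1 alone (edgeR adjusted p = 0.234). STIL, which is fused to TAL1 by a deletion in some T-ALL cases, was at 143.0 ± 13.3 CPM after peroxide and 135.0 ± 14.1 CPM in controls, and was not called over both batches. It was higher in batch 1 alone (log2 fold change 0.33, edgeR adjusted p = 0.00482) and lower in batch 2 alone (-0.16, edgeR adjusted p = 0.0469). CMPK1 was at 133.4 ± 25.6 CPM after peroxide and 126.4 ± 24.1 CPM in controls and was not called either. PDZK1IP1, a close neighbour of TAL1 named after its values were seen, was below the filter. It had 4 to 20 reads in each peroxide library, 105 in all, and 0 to 2 in each control, 5 in all. Every peroxide library was above every control, and with no filter on low counts it was higher by edgeR (adjusted p = 2.10e-20 over 38177 genes). That fit gave far smaller p-values than the main fit at like fold changes, as for ID3 (edgeR adjusted p = 2.39e-39 against 0.00167). Its p-values are thus not comparable with the others given here.

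Factors that define other T-ALL subgroups were near absent. None of 10 passed the filter, among them TLX1, TLX3, NKX2-1, HOXA9 and HOXA10, and their summed level was 0.120 to 0.699 CPM after peroxide and 0 to 0.229 CPM in controls. Markers of other cells were examined beside these results. Of 7 myeloid markers 2 passed the filter and both rose. CD14 had a log2 fold change of 3.48 ± 0.29 and ITGAM of 4.44 ± 0.47. CD14 averaged 3.15 CPM after peroxide (213 reads) and 0.267 CPM in controls (22 reads). ITGAM averaged 4.32 CPM after peroxide (286 reads) and 0.161 CPM in controls (15 reads). Both passed the filter through the peroxide libraries, so that the markers that passed rose is no test of the list. The summed level of the list was 4.89 to 14.2 CPM after peroxide and 1.01 to 2.12 CPM in controls. Below the filter, MPO had 70 reads after peroxide and 4 in controls, CD33 38 and 64 in the same order, CSF1R 22 and 5, LYZ 8 and 3, and ELANE 4 and 0. Of 7 B cell markers 2 passed the filter and 0 were called by edgeR (0 at an unadjusted p under 0.05 and 0 by DESeq2). They were CD79A, at 43.6 ± 10.5 CPM after peroxide and 40.7 ± 6.64 CPM in controls, and EBF1. The summed level of all 7 was 33.4 to 58.6 CPM after peroxide and 32.7 to 53.2 CPM in controls, and MS4A1 had 0 reads after peroxide and 1 in controls. Of the T cell markers CD3G, CD2 and CD28 fell, by 0.48, 0.25 and 0.22, and 8 did not pass. CD2 lost its call without a batch term (edgeR adjusted p = 0.145) and in batch 2 alone (edgeR adjusted p = 0.141), and CD28 in batch 1 alone (edgeR adjusted p = 0.474), without a batch term or without controls 6 and 7 (edgeR adjusted p = 0.106 each), and without peroxide 4, 5, 7 or 8 or control 3, 4 or 7 (edgeR adjusted p 0.0511 to 0.0559). The part of these markers in the changes of the 10 genes was not tested.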

How the data were processed

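RNA-seq was read from 16 deposited tables of raw read counts per gene, 1 a library. The authors aligned reads with STAR 2.7.1a and counted them with HTSeq 0.6.1 on hg19, per the submitters' processing notes; the mode and strand setting of counting are not stated. The deposited gene identifiers do not all match that build, so no coordinates are given for the counted genes; those of the printed promoters are RefSeq's on GRCh38.p14. The 5 rows that name no gene held 43.5% to 57.6% of counted reads and were left out. Symbols matched 60402 of 60662 identifiers (99.6%).

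Counts were filtered by expression, which kept 14092 genes with 99.6% of reads, scaled by TMM, and tested with edgeR 4.0.16 (R 4.3.3, limma 3.58.1) by the quasi-likelihood method with batch and group as terms, over all genes, with Benjamini-Hochberg adjustment at 0.05. Intervals are 95%. The procedure was tested on simulated counts with no difference between batches, the same spread setting for every gene and far fewer changed genes than were called here. That run does not cover the batch differences or the wide spread of the ID genes in these data. The range of 5556553 to 15720881 reads in genes limits the precision for low genes such as LMO1. DESeq2 1.42.0, limma-voom, unscaled libraries, no filter, no batch term, a replicate block, single batches, summed libraries and omission of single libraries were tried as alternatives, and omission of controls 6 and 7 together was chosen after the data were seen.

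The members and lists were chosen with earlier results of these data known. Named genes were all 10 members, up to 3 genes with the smallest p in each list at a mean of 1 CPM or more, list genes whose fold change differed between batches, and 3 genes most like TAL1 and ID3 in r of log2 CPM (pseudocount 0.5); others are named as chosen after their values were seen. Some list genes are counted but not reported singly here.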

Additional observations from a re-analysis of the deposited data

Results flagged for a closer look

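In 76 groups of 8 libraries examined for a library far from the rest, 5 held one, and chance alone flags about 1 in 20 groups. Peroxide library 8 was the one in 4 of the 5. It held GATA3 at 98.2 CPM (48.1 to 70.2 CPM in the other peroxide libraries), ID2 at 133.6 CPM (42.8 to 85.0 CPM), SOCS3 at 10.1 CPM (4.54 to 6.36 CPM) and BAMBI at 12.7 CPM (4.35 to 7.22 CPM). Peroxide library 5 held MIR223HG at 6.76 CPM (3.47 to 4.94 CPM in the other peroxide libraries).

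For 5 list genes the effect of peroxide differed between batches by the interaction term of edgeR. As batch 2 minus batch 1 on the log2 scale, the difference was -0.43 for LMO4 (adjusted p = 0.0486), -0.55 for RUNX2 (adjusted p = 0.0127), -0.77 for CREBBP (adjusted p = 0.00338), -0.97 for MIR223HG (adjusted p = 0.0288) and -0.49 for STIL (adjusted p = 0.00444). LMO4 was higher after peroxide in both batches (log2 fold changes 0.83 ± 0.09 in batch 1 and 0.40 ± 0.09 in batch 2) and MIR223HG lower in both (-1.41 ± 0.18 and -2.38 ± 0.16), while the signs of RUNX2 (0.22 ± 0.09 and -0.33 ± 0.08) and STIL (0.33 ± 0.06 and -0.16 ± 0.06) were opposite.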

How the results depend on the processing

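Over the alternatives, 241 of the log2 fold changes of the 10 genes kept their direction and side of the threshold, 10 lost the call, 4 gained it and 15 changed sign; for the named list genes the counts were 727, 20, 4 and 5. Genes called higher numbered 5150 with no filter on low counts, where more genes were tested. The fit with no filter gave a far smaller p-value for the ID2 interaction than the main fit (edgeR adjusted p = 3.71e-12 against 0.0681). The interaction p-value was also smaller for ID1 and ID3. It was larger for the others of the 10 genes, as for TAL1 (edgeR adjusted p = 0.406 against 0.255). The 10 genes gave 3 falls without a batch term and 3 in batch 1 alone, where fewer libraries were used, and 2 interactions of batch and treatment (ID2 and ID3) with no filter. Leaving out 1 library at a time gave 0 to 1 such interaction. Of the values that changed sign, 1 passed the test under its alternative, STIL, lower in batch 2 alone (edgeR adjusted p = 0.0469). TCF3 stood at 0.076 in batch 2 alone and -0.051 to 0.0049 over omissions of 1 library. LMO1 stood at 0.0070 with limma-voom, 0.060 in batch 1 alone, 0.0051 without control 1 and peroxide 5, whose shares of reads not uniquely aligned were highest, and -0.090 to 0.037 over omissions. ID1 stood at 0.10 in batch 1 alone, 0.33 without controls 6 and 7 and -0.25 to 0.11 over omissions. RUNX2 was 0.21, CMPK1 -0.022 and CD79A -0.082 in batch 1 alone, and CREBBP -0.043 and STIL -0.16 in batch 2 alone. The cause was not tested. Library numbers are shared by the groups. Of 8 pairs of same-numbered libraries, 2 had a correlation of deviations over 0.1 (range -0.17 to 0.20) and 3 matched their own number best. So few pairs cannot settle whether same-numbered libraries belong together, and the labels do not say which cultures they came from. With a replicate block 3313 genes rose and 3374 fell, and of the 10 genes 1 rose and 6 fell.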
